A study of Homo sapiens with 9 samples.

Results

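The early growth response (EGR) genes, their NAB corepressors and a set of immediate early response genes were followed in MIA PaCa-2 cells, an established human pancreatic cancer line. The 10 genes were EGR1, EGR2, EGR3, EGR4, NAB1, NAB2, IER2, IER3, IER5 and PHLDA1, each found by its exact name among 58735 genes in the count table. Cells labelled wild type for the study were kept in serum-containing medium for 24-h with 0.1% DMSO as the vehicle, with 1 μM compound 1, an inhibitor of TBK1 and IKKε, or with 1 μM SCH772984, an inhibitor of ERK1/2. RNA-Seq was performed on 3 libraries of each group, and the comparisons ask how far expression changed with each kinase inhibitor and whether the inhibitors differed. All libraries are from this line, and 24-h was the only time sampled.

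Immediate early genes are transcribed within minutes of growth factor or stress signals, without the need for new protein synthesis. ERK and the kinases it activates phosphorylate ternary complex factors such as ELK1, which sit with SRF on CArG boxes, and CREB family factors, which bind cyclic AMP response elements. EGR proteins are zinc finger transcription factors that bind GC-rich DNA, and NAB1 and NAB2 are corepressors that bind EGR1, EGR2 and EGR3 and limit their activity, with NAB2 also known as an EGR1 target. IER2, IER3, IER5 and PHLDA1 are further growth factor-responsive genes. IER3 is a regulator of cell survival, IER5 is a partner of the heat shock factor HSF1, and PHLDA1 carries a pleckstrin homology-like domain and is widely used as a readout of ERK pathway output.

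Library totals were 9464432 to 13887859 counts, with all 3 SCH772984 libraries deeper than the other 6. The epithelial markers KRT8, KRT18 and KRT19 and the intermediate filament gene VIM were present in every library, with KRT8 at 2440 to 2570 CPM (counts scaled to library size) with DMSO, 2040 to 2500 CPM with compound 1 and 701 to 822 CPM with SCH772984. KRT18 was at 835 to 921 CPM with DMSO and 150 to 174 CPM with SCH772984. KRT19 did not fall, at 229 to 281 CPM with DMSO and 243 to 290 CPM with SCH772984. VIM was at 2430 to 2600 CPM with DMSO and 1940 to 2280 CPM with SCH772984. The part of these differences in the results below was not tested. PTPRC, PRSS1, CPA1 and INS, which mark leukocytes, acinar cells and islets, had no count in any library, and the endothelial marker PECAM1 had at most 1. The fibroblast collagen COL1A1 had 1 to 4 counts with DMSO or compound 1 and 28 to 48 with SCH772984. Mitochondrially encoded genes took 3.33 to 3.98% of counts with DMSO, 3.41 to 3.92% with compound 1 and 6.23 to 7.52% with SCH772984. Compound 1 replicate 1 stood apart from the other compound 1 libraries. The chi-square of its gene counts, divided by the degrees of freedom, was 10.1 and 7.61 against them, where those 2 gave 2.66 between themselves. Between DMSO libraries this value was 2.34 to 3.15, and between the deeper SCH772984 libraries it was 4.03 to 6.4. The fold changes and calls with compound 1 are also given without its replicate 1.

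To show what the regulatory DNA of these genes looks like, sequences were taken from the RefSeq promoter windows of GRCh38.p14, which run from 250 bases before to 50 bases after a transcription start. Windows were found for 8 of the 10 genes, all except EGR3 and IER3. Among the genes of the set that could be tested, EGR1 was the most reduced by SCH772984. The 250 bases before its start (chr5:138465229-138465478, plus strand) carry 2 CArG boxes, shown in capitals. EGR2 has a CArG box of the same 10 letters as the second of these in 1 of its windows (chr10:62816418-62816447, minus strand), printed with its flanks.
EGR1 upstream: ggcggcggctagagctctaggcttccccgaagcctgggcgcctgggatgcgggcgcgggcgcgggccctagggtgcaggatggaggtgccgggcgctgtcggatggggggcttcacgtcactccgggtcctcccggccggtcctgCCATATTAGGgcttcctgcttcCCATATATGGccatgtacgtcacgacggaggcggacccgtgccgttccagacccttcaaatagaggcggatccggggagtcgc
EGR2 site: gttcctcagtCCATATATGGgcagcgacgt

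The EGR1 CArG boxes lie at -105 to -96 and -83 to -74 from the RefSeq start, and the same stretch holds the cyclic AMP response core ACGTCA at -136 to -131 and at -67 to -62. Both motifs were searched on both strands, and their matches do not overlap. A CArG box was present in 1.29% of the 35116 windows of the same length and ACGTCA in 7.98%, and only EGR1 and EGR2 had a CArG box among the 8 genes with a window. ACGTCA was also found in EGR4 at -178 to -173 and -110 to -105, in EGR2 at -55 to -50 of the window with the CArG box, and in NAB1 at -200 to -195 of 1 of its windows. These are matches of letters, and no binding was measured.

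The second set of sequences is shown for the corepressors, the pair of genes that moved in opposite directions with SCH772984. Both hold the EGR-type motif GCGNGGGCG, in capitals, which was found in 9.43% of all windows. The NAB2 match (chr12:57089042-57089071, plus strand) is at -62 to -54, the plus-strand NAB1 match (chr2:190648898-190648927, plus strand) is at 13 to 21 after the first RefSeq start, and the EGR1 match (chr5:138465271-138465300, plus strand) is at -198 to -190.
NAB2 site: tgtgcgtcctGCGGGGGCGgaggcgcggag
NAB1 site: actcggccgcGCGTGGGCGggagccggagc
EGR1 site: tgggatgcggGCGCGGGCGcgggccctagg

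NAB1 has 2 further matches on the minus strand of its first window, at -42 to -34 and -36 to -28, which overlap each other. Window 2 of NAB1, which overlaps the first, adds a minus-strand match at 8 to 16 after its own start. EGR2 has a minus-strand match at 8 to 16 after the start of its window 2. IER2, IER5 and PHLDA1 had no match to the CArG box, to GCGNGGGCG or to ACGTCA in their windows, and each had 1 match to the ETS core CCGGAA, which 17.2% of windows hold. No match says only that these letters are not in these windows.

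By levels per transcript length, the genes fell into a well-expressed set of 7 and a nearly silent set of 3. With DMSO, PHLDA1 was highest at 107 ± 1.73 TPM (counts scaled by gene length and library; SD, n = 3), followed by IER2 at 63.9 ± 3.63 TPM. NAB2 (30 ± 2.88), IER3 (27.2 ± 3.64), NAB1 (23.7 ± 0.693), IER5 (22.5 ± 1.82) and EGR1 (18.9 ± 3.06 TPM) came next, and each of them overlapped its neighbour in this order. EGR3 (0.125), EGR4 (0.0497) and EGR2 (0.0320 TPM) were far below and overlapped one another. EGR1 was therefore the only EGR family member with more than 6 counts in any library.

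**Figure D1:**
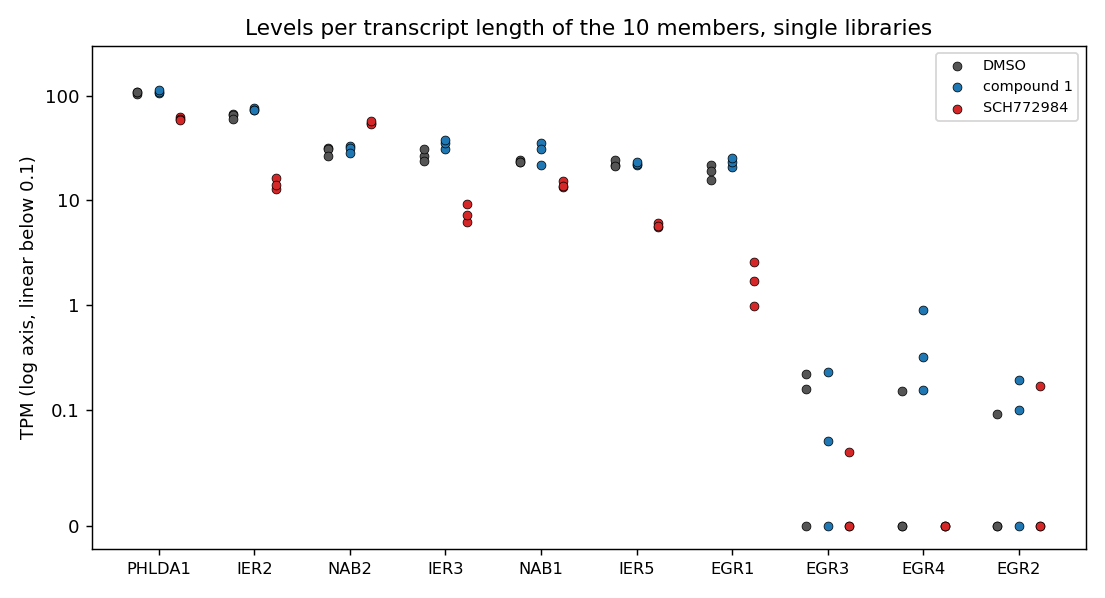
Level per transcript length (TPM, log axis that is linear below 0.1) of the 10 genes in single libraries, ordered by the DMSO mean, with 3 points per group. PHLDA1 sits highest in all groups, EGR1 falls from 18.9 to 1.74 TPM with SCH772984 while NAB2 goes from 30 to 55.5 TPM, and EGR2, EGR3 and EGR4 stay below 1 TPM.

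With SCH772984, all 7 well-expressed genes changed: EGR1, IER2, IER3, IER5, PHLDA1 and NAB1 fell and NAB2 rose. These 7 passed the filter on low counts, and a gene was called at an adjusted p under 0.05 by edgeR's quasi-likelihood test, adjusted over all 13834 genes tested. With this inhibitor 72.8% of all genes tested were called, 35.5% lower and 37.2% higher, so a call for 7 of 7 is not far from the background, and the sizes and directions of the changes are described below. The median log2 fold change of the 7 genes was -1.90, against 0.03 over all genes tested. Of the 7, 4 fell at least 2-fold, a class that held 10.6% of all genes tested. No overlap between the groups was seen in 36.5% of all genes in the lower direction and in 37.8% in the higher direction. The labels do not say that replicates were separate cultures, so the p-values set each difference against variation between libraries, not between known separate cultures. The test estimates that variation with information from all genes, which gave 41.3 to 44.1 degrees of freedom for 3 against 3 libraries. In RNA from whole cultures, fewer cells of a type and less RNA per cell cannot be told apart.

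EGR1 (ENSG00000120738, chr5:138465490-138469315, plus strand, GRCh38, 2 exon blocks) showed the largest fall of the 7 genes. Exon blocks are the exons of all annotated transcripts of a gene, merged where they overlap. Its level, in CPM normalized by TMM, was 19.9, 14.5 and 17.3 in the DMSO libraries and 1.41, 0.817 and 2.29 with SCH772984, from 10 to 34 counts per library. Every SCH772984 library was far below every DMSO library, and on average 8.74% of the DMSO level remained, with 4.74 to 13.3% in single libraries. The log2 fold change was -3.45 ± 0.22 (SE; 95% confidence interval -3.90 to -3.01; adjusted p = 8.17e-18, edgeR), and only 0.231% of genes tested had a value this low or lower. The 3 SCH772984 libraries varied more in relative terms than the DMSO libraries, and without 1 library at a time the fold change ranged from -3.92 to -3.19.

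All 3 IER genes fell. IER2 (ENSG00000160888, chr19:13150415-13154908, plus strand), a nuclear protein of growth factor-stimulated cells, was at 59.7, 58.8 and 53.2 CPM with DMSO and at 13.6, 10.5 and 12.1 CPM with SCH772984. IER5 (ENSG00000162783, chr1:181088712-181092899, plus strand, a single exon block) was at 26.4, 30.2 and 25.8 CPM with DMSO and at 6.78, 6.21 and 6.81 CPM with SCH772984. IER3 (ENSG00000137331, chr6:30743199-30744554, minus strand, a single exon block) was at 10.5, 12.4 and 9.38 CPM with DMSO and at 2.23, 2.61 and 3.57 CPM with SCH772984. In none of these genes did the groups overlap, and 21.1% of the DMSO level remained for IER2, 24.0% for IER5 and 26.1% for IER3. The log2 fold changes were -2.22 ± 0.10 for IER2 (SE; adjusted p = 1.83e-23, edgeR), -2.03 ± 0.14 for IER5 (adjusted p = 1.23e-17) and -1.90 ± 0.21 for IER3 (adjusted p = 3.78e-11). The 95% confidence intervals of the 3 overlapped one another, and each lay above that of EGR1. These genes were among the lowest 1.13%, 1.63% and 2.12% of all genes tested.

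**Figure D2:**
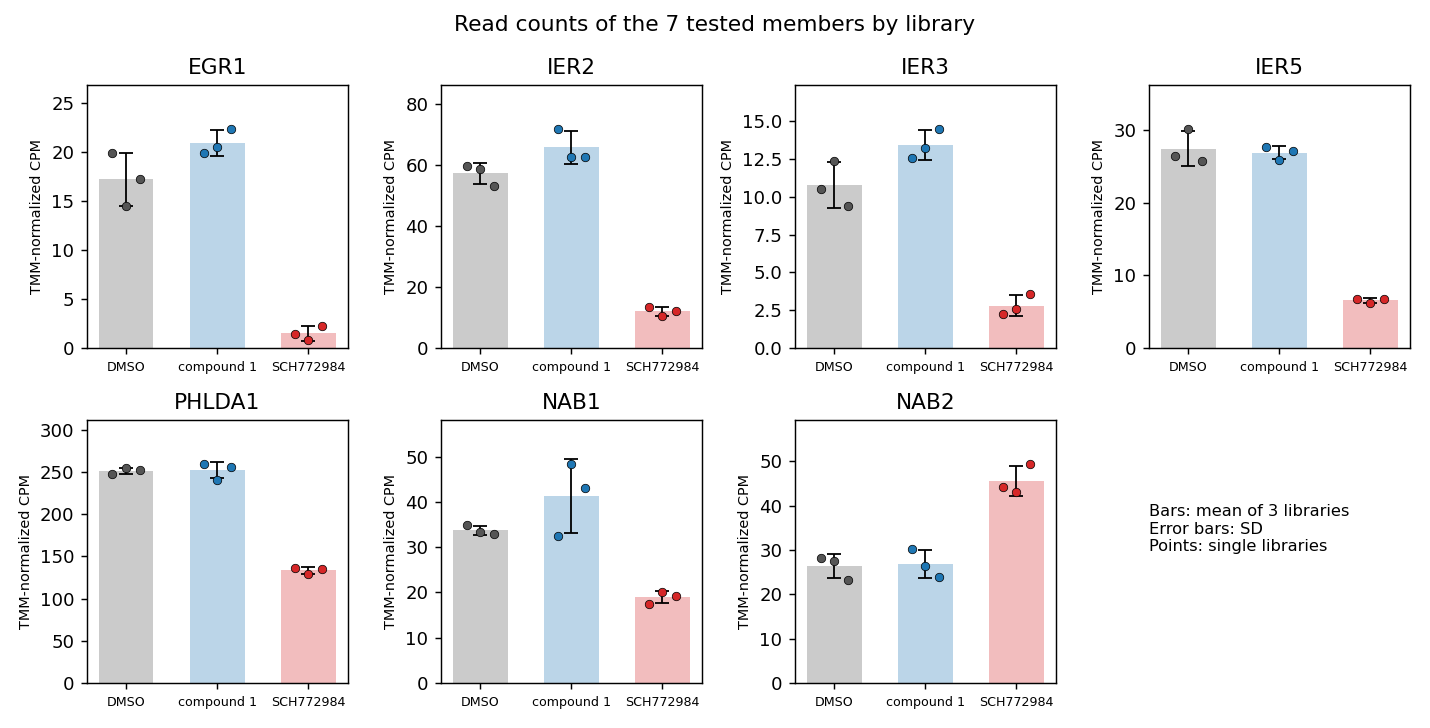
TMM-normalized CPM (each panel with its own axis from 0) of the 7 tested genes by group, with bars for the mean of 3 libraries, error bars for the SD and points for single libraries. For EGR1, IER2, IER3, IER5, PHLDA1 and NAB1 every SCH772984 point lies below every DMSO point, and for NAB2 every SCH772984 point, from 43.0 to 49.5, lies above them.

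PHLDA1 and NAB1 fell by less. PHLDA1 (ENSG00000139289, chr12:76025447-76033932, minus strand, 2 exon blocks) was at 248, 255 and 252 CPM with DMSO and at 136, 129 and 135 CPM with SCH772984. On average 53.0% of its level remained. In SD over mean it varied least of the set in both groups, and the log2 fold change was -0.89 ± 0.06 (SE; adjusted p = 3.64e-17, edgeR). NAB1 (ENSG00000138386, chr2:190646746-190692766, plus strand, 13 exon blocks) was at 34.9, 33.4 and 33.0 CPM with DMSO and at 17.5, 20.2 and 19.1 CPM with SCH772984. Its log2 fold change was -0.81 ± 0.11 (SE; adjusted p = 4.18e-09, edgeR). In position among all genes tested, PHLDA1 was at 12.9% and NAB1 at 15% from the lowest. PHLDA1, the most abundant of the 10 genes with DMSO, was also the most abundant after SCH772984 at 60.7 ± 2.32 TPM.

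NAB2 was the gene that rose. NAB2 (ENSG00000166886, chr12:57088894-57095476, plus strand, 7 exon blocks) was at 28.1, 27.6 and 23.3 CPM with DMSO and at 44.3, 43.0 and 49.5 CPM with SCH772984. On average this was 173% of the DMSO mean. Every SCH772984 library was above every DMSO library, and the log2 fold change was 0.81 ± 0.09 (SE; 95% confidence interval 0.62 to 1.01; adjusted p = 2.48e-10, edgeR). A value this high was not unusual among all genes, since NAB2 stood at 77.6% from the lowest, and with a 2-fold threshold, which 18.2% of all genes passed in the higher direction, no gene of the set was called higher. NAB2 shares 69 of its 3010 exonic bases with STAT6 on the opposite strand, and STAT6 rose as well, by 0.96 ± 0.07 on the log2 scale (adjusted p = 5.10e-16). The strand setting of the counting is not given in the sources used here, and the part of shared reads in the NAB2 value was not tested. The other overlapping genes, all on the opposite strand, had at most 16 counts in any library.

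The ratio of corepressor to EGR1 transcripts was higher with SCH772984 in every library. With DMSO, the NAB2 to EGR1 ratio of TPM was 1.47, 1.99 and 1.40 in the 3 libraries, and with SCH772984 it was 32.9, 54.9 and 22.5. The NAB1 to EGR1 ratio lay between 1.12 and 1.48 with DMSO and between 5.35 and 15.9 with SCH772984. NAB2 and NAB1 transcripts were at ratios of 1.15 to 1.34 with DMSO and of 3.46 to 4.20 with SCH772984. None of these DMSO and SCH772984 ranges overlapped, and with compound 1 the NAB2 to EGR1 ratio was 1.58, 1.34 and 1.11, which overlapped the DMSO range. These ratios restate the levels above and were not tested.

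EGR2, EGR3 and EGR4 were too low to compare. EGR2 (ENSG00000122877, chr10:62811996-62919900, minus strand) had 1, 0 and 0 counts with DMSO, 2, 0 and 1 with compound 1 and 2, 0 and 0 with SCH772984. EGR3 (ENSG00000179388, chr8:22687659-22693302, minus strand) had 3, 0 and 2 counts with DMSO, 1, 0 and 3 with compound 1 and 1, 0 and 0 with SCH772984. EGR4 (ENSG00000135625, chr2:73290929-73293705, minus strand) had 1, 0 and 0 counts with DMSO, 6, 2 and 1 with compound 1 and none with SCH772984. A count of 0 allows up to 3 counts, which is 0.317 CPM in the shallowest library. The summed EGR4 counts of 9 with compound 1 and 1 with DMSO gave a depth-corrected ratio of 9.02, with a 95% counting interval of 1.25 to 396 that covers counting error only. Of these 9 counts, 6 were in compound 1 replicate 1, and without that library the ratio was 4.51, with an interval of 0.362 to 237. Without the filter on low counts, EGR4 was called lower with SCH772984 than with compound 1 (adjusted p = 0.0146, edgeR), and no other contrast of these 3 genes was called. That call was lost when compound 1 replicate 1 was also left out (adjusted p = 0.177, edgeR). At this depth, other differences in them were not detectable.

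The mitochondrial share and the library depth moved with SCH772984, and the fits were repeated with these in view. Without the mitochondrially encoded genes, EGR1 was at -3.45, IER2 at -2.22 and NAB2 at 0.82 on the log2 scale. Scaled by library size alone, the median of all genes tested moved from 0.03 to 0.20, and the 6 lower genes and NAB2 kept their direction and their calls, with EGR1 at -3.28, NAB1 at -0.64 and NAB2 at 0.99.

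**Figure D3:**
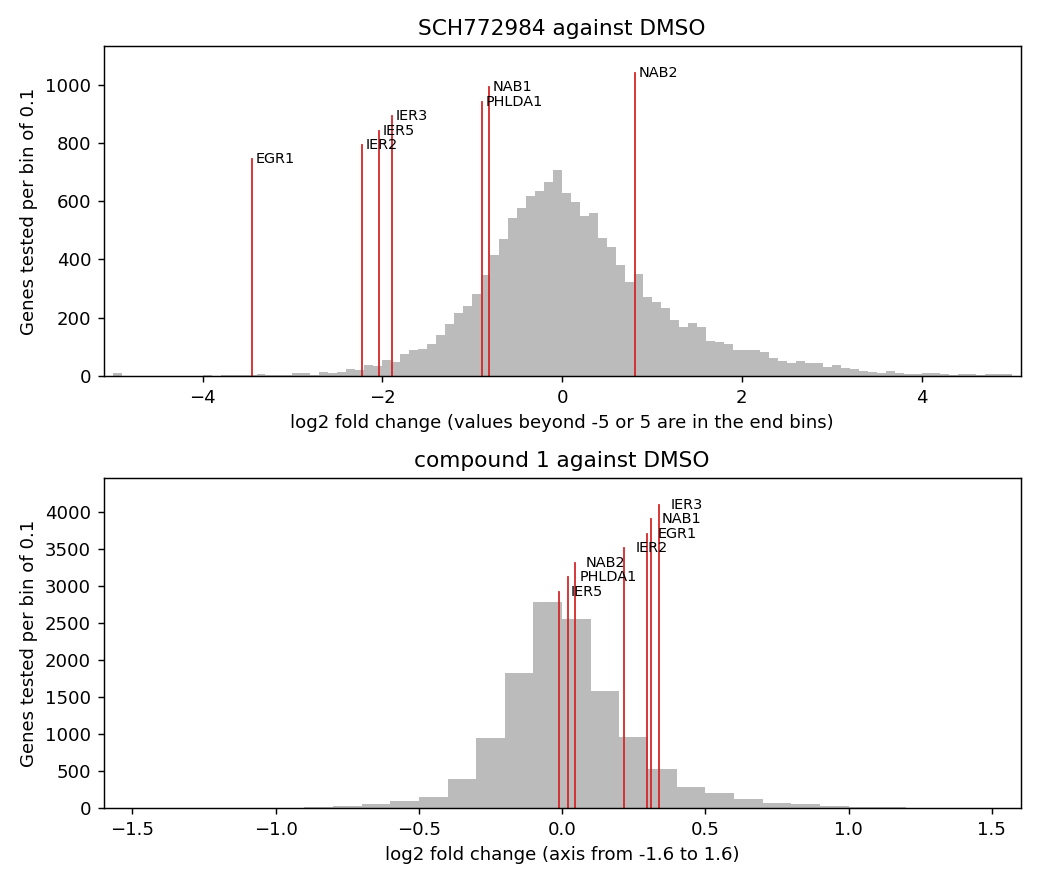
Number of genes tested per bin of 0.1 log2 fold change for each inhibitor against DMSO (the horizontal axes differ between panels), with red lines at the 7 genes. EGR1 at -3.45 lies in the far lower tail with SCH772984, NAB1, PHLDA1 and NAB2 lie within the bulk of all genes, and with compound 1 the lines lie between -0.01 and 0.34.

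With compound 1, no gene of the set passed the threshold in either direction. The edgeR test called 0.864% of the 12849 genes tested, 0.374% lower and 0.490% higher, and DESeq2 called none of the 7 either. At an unadjusted p under 0.05, which 7.35% of all genes tested passed in the higher direction, EGR1, NAB1, IER2 and IER3 were higher. None was lower, where 7.69% of all genes passed. The median log2 fold change of the 7 genes was 0.22, against 0.00 over all genes tested.

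EGR1 was at 19.9, 20.5 and 22.4 CPM with compound 1, and its lowest value came level with the highest DMSO library at 19.9 CPM. The log2 fold change was 0.30 ± 0.13 (SE; 95% confidence interval 0.01 to 0.58; adjusted p = 0.307, edgeR), and without 1 library at a time it ranged from 0.18 (without DMSO replicate 2, adjusted p = 0.736) to 0.41. IER3 was at 12.6, 13.2 and 14.5 CPM (0.34 ± 0.15; adjusted p = 0.294) and IER2 at 71.8, 62.6 and 62.7 CPM (0.22 ± 0.09; adjusted p = 0.265). Without compound 1 replicate 1 the log2 fold changes were 0.33 for EGR1, 0.38 for IER3 and 0.14 for IER2, and none was called. For IER2 and IER3 all 3 libraries were above all DMSO libraries in CPM, while for EGR1 the groups met at 19.9 CPM, and 10.6% of all genes tested did not overlap in this direction. Per length and library total, as TPM, the EGR1 and IER3 groups overlapped by a narrow margin, with the lowest compound 1 library at 21.0 and the highest DMSO library at 21.8 TPM for EGR1, and at 30.7 and 31.1 TPM for IER3.

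The NAB1 value depended on single libraries. It was at 32.4 CPM in compound 1 replicate 1, below all DMSO libraries, and at 48.5 and 43.1 CPM in replicates 2 and 3, above them. The log2 fold change was 0.31 ± 0.13 (SE; adjusted p = 0.255, edgeR) with all libraries and 0.45 ± 0.09 (adjusted p = 0.000916) without replicate 1, where NAB1 was the gene of the set that was called and 9.56% of all 13084 genes tested were called, with 6.10% of all genes lower and 3.46% higher. Without compound 1 replicate 2 it was 0.18 (adjusted p = 0.548, edgeR). IER5 at 27.7, 25.9 and 27.2 CPM, PHLDA1 at 260, 241 and 256 CPM and NAB2 at 30.1, 26.4 and 24.0 CPM overlapped DMSO in every case. Their log2 fold changes were -0.01, 0.02 and 0.04, with 95% confidence intervals of -0.23 to 0.21, -0.12 to 0.16 and -0.21 to 0.29, so that a change of 2-fold in either direction lay outside all 3 intervals. STAT6, which overlaps NAB2, rose by 0.36 ± 0.08 on the log2 scale (adjusted p = 0.0458, edgeR), and by 0.34 ± 0.08 (adjusted p = 0.00191) without compound 1 replicate 1.

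Set against each other at the same dose and time, the inhibitors differed in all 7 genes. EGR1 was lower with SCH772984 than with compound 1 by a log2 fold change of -3.74 ± 0.22 (SE; adjusted p = 9.20e-12, edgeR), IER2 by -2.43 ± 0.12 (adjusted p = 4.20e-13) and IER3 by -2.23 ± 0.20 (adjusted p = 4.18e-09). IER5 differed by -2.01 ± 0.14 (adjusted p = 6.68e-11), NAB1 by -1.11 ± 0.14 (adjusted p = 4.18e-07) and PHLDA1 by -0.91 ± 0.08 (adjusted p = 4.09e-09). NAB2 was higher with SCH772984, by 0.78 ± 0.11 (adjusted p = 3.46e-06). Without compound 1 replicate 1 all 7 were still called, with EGR1 at -3.77, IER2 at -2.36, IER3 at -2.27, IER5 at -1.99, NAB1 at -1.26, PHLDA1 at -0.88 and NAB2 at 0.88. Among all 13863 genes tested in this comparison, 66.3% were called, 32.6% lower and 33.7% higher. Both inhibitors were set against the same DMSO libraries, so the comparisons with DMSO are not independent of each other.

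**Figure D4:**
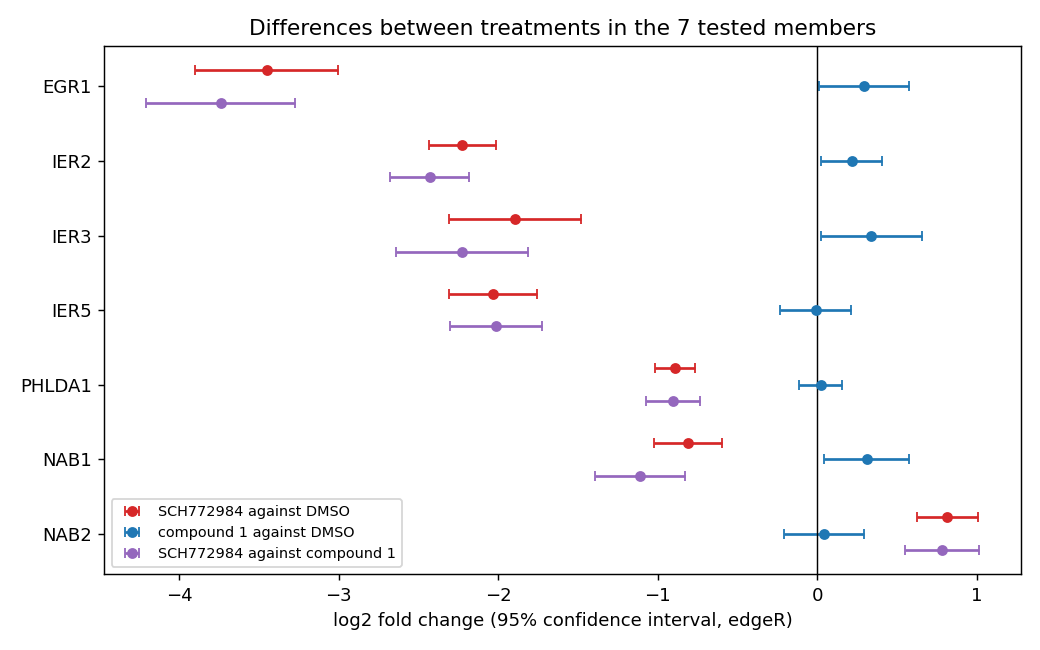
log2 fold change with 95% confidence interval (edgeR) of the 7 genes in 3 comparisons. The intervals for SCH772984 lie left of 0 for 6 genes and right of it for NAB2, while those for compound 1 are near 0, from -0.23 to 0.66 at their widest.

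Other genes of the pathway were described as whole lists, whose counts stand beside the 72.8% of all genes tested that were called with SCH772984, 35.5% lower and 37.2% higher. Of 8 ERK pathway output genes tested, a list that leaves PHLDA1 out, 7 fell and 1 rose with SCH772984, with a median log2 fold change of -5.52. SPRY4, a feedback inhibitor of receptor signaling, fell by 6.81 and ETV5, an ETS transcription factor, fell by 6.54 on the log2 scale, against -3.45 for EGR1, while the receptor EPHA4 rose by 1.48. Of 28 other immediate early genes tested, 14 fell, 8 rose and 6 were not called, with a median of -0.29, so that the share called was close to that of all genes. The AP-1 subunit gene FOSL1 fell by 5.94 and KLF2 fell by 2.68, whereas the antiproliferative gene BTG2 rose by 3.33 and the phosphatase gene DUSP2 rose by 2.13. With compound 1, no gene of these or the following lists was called by edgeR, and at an unadjusted p under 0.05 3 of 8 output genes were lower and 8 of 27 immediate early genes were lower and 1 higher, where 7.69% of all genes were lower and 7.35% higher. The count of 0 depended on compound 1 replicate 1. Without it 3 output genes (EPHA2, EPHA4 and SPRY2) and 5 immediate early genes were called lower and 1, JUNB, higher, by at most 0.44 on the log2 scale, where 6.10% of all genes were called lower and 3.46% higher. EPHA2, SPRY2 and JUNB are named here after their values were seen.

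Among the factors known to act on immediate early promoters, ELK3, a ternary complex factor, fell by 3.08 and SRF fell by 0.86 with SCH772984, while the coactivator genes MRTFB and MRTFA rose by 0.97 and 0.66. All 6 genes of this list were called, 4 lower and 2 higher, where 72.8% of all genes were called. Of 5 CREB factors and MSK kinases, 3 fell and 1 rose, among them RPS6KA4 (MSK2) with a fall of 1.25, ATF1 with a fall of 0.82 and RPS6KA5 (MSK1) with a rise of 0.68. Of 13 subunits of NuRD, the chromatin remodeling complex that NAB2 is known to bind, 7 fell and 2 rose, with GATAD2A lower by -1.32, MTA2 by -1.10, CHD3 higher by 1.41 and MTA3 by 0.68. All of these values are log2 fold changes against DMSO, and with lists this short the counts for the CREB, MSK and NuRD genes are not set apart from the share called among all genes.

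Genes reported as EGR1 targets went in both directions. Of 8 tested with SCH772984, 2 fell, 3 rose and 3 were not called, and the median log2 fold change was 0.08, near the 0.03 of all genes, of which 35.5% were called lower and 37.2% higher. CDK5R1 fell by 0.90 and TGFB1 fell by 0.55 on the log2 scale, whereas PDGFA rose by 1.11. Of the closest relatives, PHLDA2 fell by 2.67 and IER5L fell by 1.42, and in all 3 of 4 fell and 1 rose. Of 8 genes of HSF1 and the heat shock response, to which IER5 is linked, 6 fell and 2 rose with a median of -1.03, with HSPH1 lower by -1.26, HSPA1A by -1.15, BAG3 higher by 0.53 and HSPB1 by 0.30. With compound 1 and without its replicate 1, 6.10% of all genes were called lower and 3.46% higher. The numbers called lower in this setting were 1 of 6 SRF-linked genes, 1 of 5 CREB factors and MSK kinases and 3 of 13 NuRD subunits. They were 2 of 9 reported EGR1 targets, 1 of 3 relatives, 3 of 8 heat shock genes and 2 of 4 pancreatic cancer line markers. In each of these lists 0 were called higher. Nothing particular to these short lists is read from their counts. HSPA1A has a near-identical copy in HSPA1B, so that its count is uncertain.

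**Figure D5:**
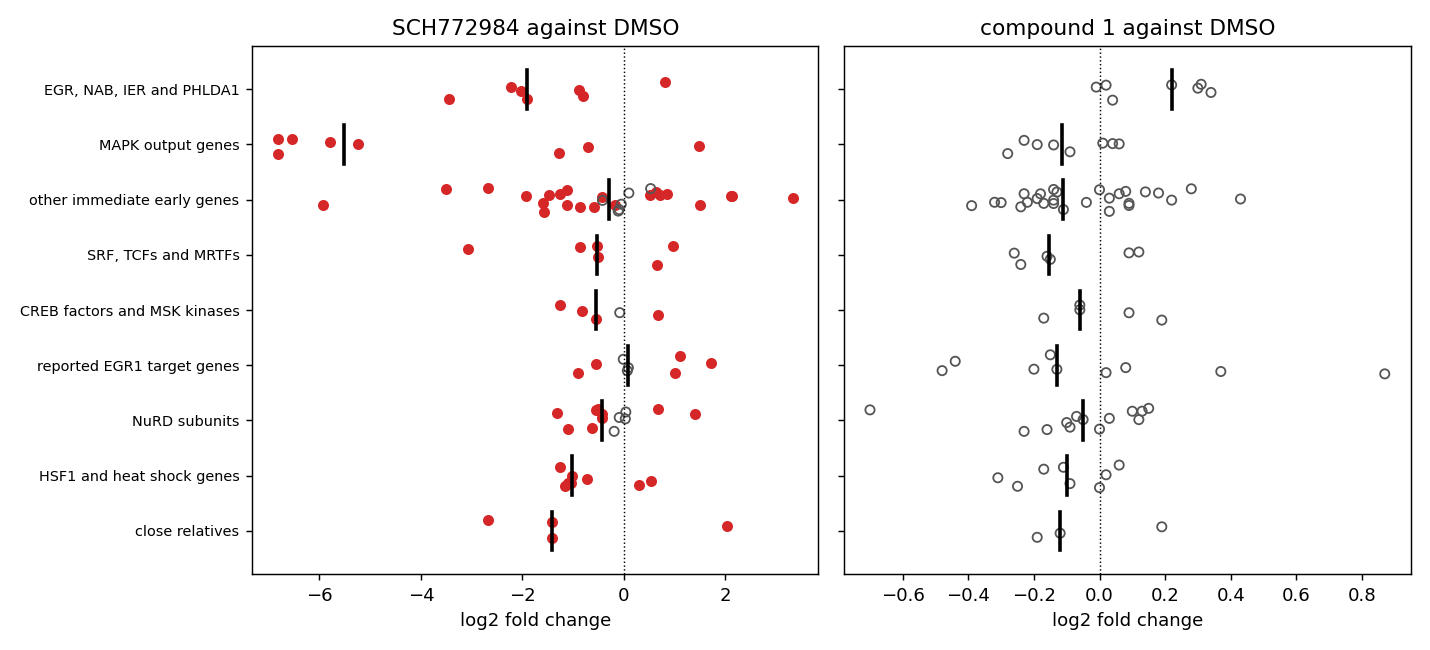
log2 fold change of every tested gene of the EGR, NAB, IER and PHLDA1 set and of 8 other lists, with SCH772984 (left) and compound 1 (right, a narrower axis). With all libraries, filled red points passed the edgeR threshold, open points did not, and black bars are medians, which lie at -1.90 for the set and -5.52 for the MAPK output genes on the left and within 0.22 of 0 on the right.

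The genes whose pattern over all 9 libraries was nearest to EGR1 were THSD4, ADORA1 and TGM2, out of 9957 protein-coding genes compared. Likeness was the root mean square difference of log2 CPM after subtraction of each gene's DMSO mean, and it was 0.238, 0.302 and 0.306. For NAB2 the nearest were LRP10 (0.0657), HDHD3 (0.0777) and TMEM14C (0.0795).

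The 3′ UTRs of the set differed in AU-rich pentamers, a feature of short-lived mRNAs. The pentamer ATTTA, counted with overlaps on the sense strand, occurred 6 times in the 737 bases of IER3, 8.14 per kilobase, and only 2.28% of 11714 protein-coding genes had a density that high. PHLDA1 had 14, IER5 and NAB1 10 each and NAB2 3, at 3.00 to 4.11 per kilobase, while the median over all genes was 1.47. EGR1 had 1 in 1234 bases and IER2 none in 1050 bases, and 67.2% of all genes had at least 1. No relation between these numbers and the changes was tested. NAB2, which rose, had 3.97 per kilobase and NAB1, which fell, had 4.11.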

How the data were processed

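The authors deposited gene-level counts, made per the submitters' processing notes with HISAT2 2.0.5 and featureCounts 1.5.0-p3 on hg38. All 58735 gene positions matched GENCODE 29. Strand setting and filters are not given in the sources used here. Totals of 9464432 to 13887859 counts limit the precision of low genes, and counting intervals and floors cover counting error only.

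Counts were tested per comparison, 3 libraries against 3, with edgeR 4.0.16 in R 4.3.3 (quasi-likelihood, robust, TMM, filterByExpr with minimum count 10 and minimum total 15, no covariate). Calls were at Benjamini-Hochberg adjusted p under 0.05. limma 3.58.1 is loaded by edgeR. Alternatives were other scalings, filters, fits of all 9 libraries, a replicate block, DESeq2 1.42.0, other thresholds, each library left out and, added after seeing the data, removal of 37 mitochondrially encoded genes and of the filter together with compound 1 replicate 1, and the other lists without that library. CPM used TMM factors of 9 libraries, with 0.5 added before log2 for likeness. TPM used the deposited gene lengths. The scripts were checked on simulated counts.

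The genes and lists were chosen with earlier results of these data known. All 10 genes were named. From other lists, at most 2 genes per direction with the largest change among those called with an average of at least 5 CPM were named, and 3 genes nearest EGR1 and NAB2.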

Additional observations from a re-analysis of the deposited data

Results flagged for a closer look

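For EGR1, IER2 and IER3 the means of the groups treated with the inhibitors lay on opposite sides of DMSO, and the direct edgeR test of SCH772984 against compound 1 passed. The difference on the log2 scale, SCH772984 minus compound 1, was -3.74 for EGR1, -2.43 for IER2 and -2.23 for IER3. The compound 1 side of each, 0.30, 0.22 and 0.34 against DMSO, did not pass the adjusted threshold. Every SCH772984 library was below the DMSO libraries. The compound 1 libraries were above them in CPM for IER2 and IER3, while EGR1 met the highest DMSO library at 19.9 CPM, and in TPM the EGR1 and IER3 groups overlapped DMSO. The NAB1 means lay in the same order, with a difference of -1.11, but its compound 1 libraries lay on both sides of DMSO. Dixon's test for an outlying sample was not run on groups of 3.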

How the results depend on the processing

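With SCH772984, against DMSO and against compound 1, 6 genes lower and NAB2 higher were called under every alternative, except that a 2-fold threshold left 4 and 5 lower and 0 higher. Without the filter EGR4 was also lower than with compound 1, but not when compound 1 replicate 1 was left out too, a setting added after seeing the data. With compound 1 against DMSO, 0 genes were called lower or higher by the alternatives except for 4 higher at unadjusted p and 1 higher, NAB1 at 0.45 (adjusted p = 0.000916), without compound 1 replicate 1 (also 1 without the filter). Left-out libraries thus gave 0 to 1 higher. Log2 fold changes near 0 with compound 1 changed sign. IER5 went from -0.01 to 0.019 with library size alone, and without 1 library at a time it ranged from -0.052 to 0.057 (above 0 without DMSO replicate 2 or compound 1 replicate 2), NAB2 from -0.052 to 0.116 (below 0 without DMSO replicate 3 or compound 1 replicate 1) and PHLDA1 from -0.0049 to 0.051 (below 0 without compound 1 replicate 1). Without both the filter and compound 1 replicate 1, NAB2 was at -0.058 and PHLDA1 at -0.010. The cause was not tested. Whether equal replicate numbers mark pairs is not given by the labels, and libraries were not treated as pairs. Correlations of same-numbered deviations from the group means were -0.15 to 0.25 over 10474 genes. Not every library correlated best with its own number. With 3 libraries per group the deviations within a group depend on each other, so these correlations cannot decide the question. With the replicate block EGR1 was at -3.48 with SCH772984 and at 0.30 with compound 1, and no call in the set changed, while calls over all genes with compound 1 went from 48 to 219 lower and from 63 to 193 higher. Over all genes, leaving out compound 1 replicate 1 gave 798 lower and 453 higher, and leaving out any other library lowered the calls, to 3 to 24 lower and 5 to 27 higher. Depth limits EGR2, EGR3 and EGR4.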
